A study of Homo sapiens with 8 samples.

Results

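The genes that bring iron into a cell, store it, export it and sense it were followed in Huh7 cells, an established human hepatocellular carcinoma line, after depletion or overexpression of UPF1. The 8 genes TFRC, FTH1, FTL, SLC40A1, SLC11A2, IREB2, ACO1 and HMOX1 were chosen by their symbols, and all 8 were found among the 17076 genes listed in every library. RNA was sequenced from 4 groups of 2 libraries. The siUPF1 cells carried siRNA against UPF1 and the siControl cells a scrambled siRNA, while the MYC-UPF1 cells carried a vector expressing UPF1 with a MYC epitope tag and the MYC cells a control MYC vector. All groups share the Huh7 background with no other allele or drug named in the labels, and each knockdown or overexpression was judged against its own transfected control. Which siRNA was used for sequencing is not given in the sources used here. The labels do not say whether the 2 libraries of a group came from separate cultures, so p-values measure the spread between these libraries, which may be technical.

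UPF1 is an RNA helicase of nonsense-mediated mRNA decay (NMD) and of several other decay pathways that act through 3′ untranslated regions. The TFRC mRNA is a described target of regulated decay. Cells adjust iron uptake and storage largely after transcription: when iron is scarce, the iron regulatory proteins IRP1 and IRP2 bind hairpins called iron-responsive elements (IREs). Binding to a hairpin in the 5′ untranslated region, as in ferritin and ferroportin mRNA, blocks translation, and binding to the hairpins in the 3′ untranslated region of TFRC protects the mRNA from cleavage and decay. Hepatocytes are a main site of iron storage and the source of transferrin and hepcidin.

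The IREs of these mRNAs are shown for the 4 members in which the search below found such a hairpin. Transcripts of GENCODE release 44 on GRCh37 (the assembly also called hg19) were searched on the sense strand for a C, any 5 bases, the loop CAGTGN and 5 bases that pair with the first 5, counting G with T as a pair. A looser search allowed the loop CAGNGN, which includes every match of the first. The sequences below are in DNA letters from 5′ to 3′, with the 6 loop bases in capitals, and 5 bases of stem stand on either side of the loop.
TFRC 1, chr3:195777899-195777928, minus strand, 3′ untranslated region: atttatcagtgaCAGAGTtcactataaatg
TFRC 2, chr3:195777849-195777878, minus strand, 3′ untranslated region: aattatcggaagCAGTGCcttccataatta
TFRC 3, chr3:195777445-195777474, minus strand, 3′ untranslated region: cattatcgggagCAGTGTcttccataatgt
TFRC 4, chr3:195777380-195777409, minus strand, 3′ untranslated region: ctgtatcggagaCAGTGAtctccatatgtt
TFRC 5, chr3:195777333-195777362, minus strand, 3′ untranslated region: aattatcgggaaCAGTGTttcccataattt
FTH1, chr11:61735045-61735074, minus strand, 5′ untranslated region: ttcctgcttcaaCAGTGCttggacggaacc
FTL, chr19:49468592-49468621, plus strand, 5′ untranslated region: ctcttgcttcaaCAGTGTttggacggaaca
SLC40A1, chr2:190445386-190445415, minus strand, 5′ untranslated region: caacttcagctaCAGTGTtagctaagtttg

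The 5 TFRC matches all lay in exon 19, which holds the 3′ untranslated region, and the FTH1, FTL and SLC40A1 matches lay in exon 1. TFRC 1 was found only with the looser loop. Among 13276 canonical protein-coding transcripts of listed genes, 1.5% held a match to the stricter pattern, 0.121% held it in the 5′ untranslated region and 0.738% in the 3′ untranslated region. TFRC held 4 stricter matches, the most of any transcript searched, and the next highest number was 2. The looser loop was found in 5.02% of transcripts. No protein-coding transcript of SLC11A2, IREB2, ACO1 or HMOX1 held the stricter or the looser pattern, which says only that these letters and pairings were not in the sequences searched. A hairpin is described in the 3′ untranslated region of some SLC11A2 transcripts. Among the other iron genes listed, the canonical transcripts of TF and CDC14A held a stricter match in the 3′ untranslated region.

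Values are FPKM, read numbers relative to the length of the transcript and the size of the library, so levels of different genes can be set side by side. Summed FPKM ranged from 403902 to 455592 per library, no listed gene was at 0, and the depth is unknown. UPF1 was at 44.5 and 47.4 FPKM in siControl and 20.7 and 21.9 FPKM in siUPF1, and at 45.1 and 57.4 FPKM in MYC against 2835 and 2484 FPKM in MYC-UPF1. Each of the 8 hepatocyte or liver markers was listed, with ALB from 6550 to 8371 FPKM and AFP from 11093 to 12505 FPKM. Of 3 macrophage and 3 erythroid markers, cell types that handle much iron, 0 were listed, and of the leukocyte markers LYZ was at 160 to 227 FPKM, CD68 at 2.95 to 3.84 FPKM and CD14 at 1.84 to 2.85 FPKM, while PTPRC was not listed. The plasmid libraries grouped across their labels: across genes, MYC replicate 1 correlated best with MYC-UPF1 replicate 2 (0.998), against 0.996 with MYC replicate 2. These 2 libraries did not overlap the other 2 plasmid libraries for 7 of the 8 iron genes, all but FTL, and for 60.6% of all genes tested.

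**Figure D1:**
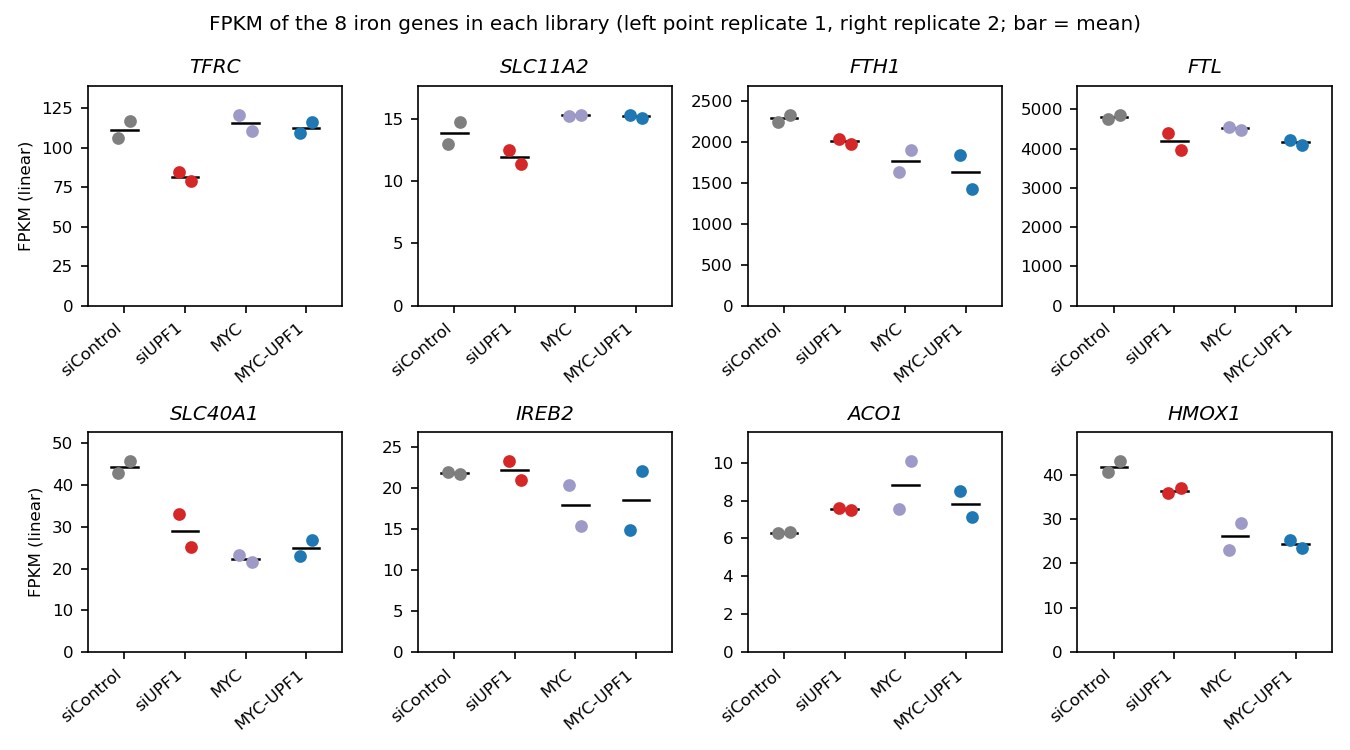
FPKM of each of the 8 iron genes (vertical axes, each starting at 0) in the 4 groups, with a point for each library and a bar for the mean of 2. TFRC, SLC40A1, FTH1, FTL, SLC11A2 and HMOX1 were lower in both siUPF1 libraries than in both siControl libraries. The MYC and MYC-UPF1 points overlap for every gene but FTL.

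The 8 genes covered a wide span of levels. The ferritin light chain gene FTL was the most abundant member, at rank 10 or 11 of the 17076 genes in every library. The heavy chain gene FTH1, whose product oxidizes iron as it enters the ferritin shell, ranked from 15 to 25. Together the ferritin subunits made up 1.29% to 1.61% of all FPKM in a library. TFRC ranked from 431 to 750, SLC40A1 from 1360 to 2830, HMOX1 from 1467 to 2533, IREB2 from 2617 to 3769, SLC11A2 from 3648 to 4967 and ACO1 from 5196 to 7054. Over the 8 libraries the highest value was 1.23 times the lowest for FTL and 2.13 times the lowest for SLC40A1, with the other members between these.

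TFRC and SLC40A1 were lower after UPF1 depletion and ACO1 was higher, by an unadjusted p of 0.05 from limma on log2(FPKM + 1). The study states a p of 0.05 for its sequencing without naming a test or an adjustment. TFRC, which encodes transferrin receptor 1, the receptor that takes up transferrin-bound iron, went from 106 and 117 FPKM in siControl to 84.8 and 78.6 FPKM in siUPF1. Both siUPF1 libraries were below both controls, and in bulk RNA fewer cells with the transcript and less of it per cell cannot be told apart. TFRC fell with a log2 fold change of -0.44 (standard error 0.099, 95% interval -0.68 to -0.21, limma adjusted p = 0.0937), which is 0.736 times the control. The group means were 111 ± 7.59 and 81.7 ± 4.36 FPKM (SD, n = 2). Without siControl replicate 2 the log2 fold change was -0.37 and no longer passed the unadjusted threshold. A fit with a library left out has 1 library in an arm, which is assumed to vary like the 2 of the other arm. The TFRC gene spans 195739382 to 195809024 of chromosome 3, minus strand.

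SLC11A2 encodes DMT1, the transporter that moves ferrous iron out of the endosome after TFRC has brought it in. It was at 13.0 and 14.8 FPKM in siControl and 12.5 and 11.4 FPKM in siUPF1. Both siUPF1 values were below both controls, but the nearest libraries of the groups lay closer to each other than the siControl libraries did. The log2 fold change was -0.20 (95% interval -0.45 to 0.045, limma adjusted p = 0.301). It passed with quantile normalization (-0.26), with median centring (-0.24) and without siUPF1 replicate 1 (-0.26).

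The storage genes were both lower in siUPF1 than in siControl without passing the test. FTH1 was at 2242 and 2329 FPKM in siControl and 2036 and 1968 FPKM in siUPF1. Its log2 fold change was -0.19 (95% interval -0.41 to 0.031, limma adjusted p = 0.284), and 0.056 with quantile normalization. FTL was at 4742 and 4865 FPKM in siControl and 4410 and 3953 FPKM in siUPF1. The groups did not overlap for either gene, although the siUPF1 libraries of FTL lay farther from each other than the siControl libraries did. The log2 fold change of FTL was -0.20 (95% interval -0.45 to 0.041, limma adjusted p = 0.295), and 0.18 with quantile normalization, so the direction of neither ferritin gene held under that scaling. Quantile normalization sets a value by its rank in the library alone, and these ranks moved little. FTL ranked 11 and 11 in siControl and 11 and 10 in siUPF1, and FTH1 ranked 17 and 16 in siControl and 19 and 15 in siUPF1. FTH1 passed an unadjusted p of 0.05 with median centring (-0.23), without siUPF1 replicate 1 (-0.22) and without siUPF1 replicate 2 (-0.17), and FTL passed it with median centring (-0.24), with all 8 libraries fitted together (-0.20) and without siUPF1 replicate 1 (-0.28).

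The ratio of FTH1 to FTL, whose products build the ferritin shell together, is not moved by any factor that scales a whole library and was 0.473 and 0.479 in siControl and 0.462 and 0.498 in siUPF1. The siUPF1 ratios lay on either side of the control ratios (exact permutation p = 1, two-sided). The ratio of TFRC to FTH1, an uptake gene against a storage gene, was 0.0473 and 0.0501 in siControl and 0.0416 and 0.0399 in siUPF1. Both siUPF1 ratios were lower, by -0.26 on the log2 scale, with an exact permutation p = 0.333, two-sided, the smallest that 2 libraries against 2 allow. Processed copies of the ferritin genes in the genome can share reads with them: 17 copies were listed (14 of FTH1 and 3 of FTL), with a summed FPKM of 11.2 to 21.0 per library.

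SLC40A1 had the largest depletion difference of the 8 genes. It encodes ferroportin, the exporter of iron from cells. SLC40A1 was at 42.8 and 45.8 FPKM in siControl and 33.0 and 25.1 FPKM in siUPF1. Both siUPF1 libraries were below both controls, and they lay farther from each other than the controls did. SLC40A1 fell with a log2 fold change of -0.60 (standard error 0.137, 95% interval -0.93 to -0.28, limma adjusted p = 0.0946), or 0.658 times the control. The group means were 44.3 ± 2.07 and 29.1 ± 5.58 FPKM (SD, n = 2). It passed an unadjusted p of 0.05 in every alternative that left no library out, of which 1, with the replicate numbers crossed, was chosen after seeing the data. With a library left out the log2 fold change went from -0.79 without siUPF1 replicate 1 to -0.41 without siUPF1 replicate 2. The SLC40A1 gene spans 190425316 to 190448484 of chromosome 2, minus strand.

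Of the iron sensor genes, ACO1 passed the unadjusted threshold and IREB2 did not, and the difference between them was not tested. IREB2 encodes IRP2, which cells control by degrading the protein when iron is plentiful. IREB2 was at 21.9 and 21.7 FPKM in siControl and 23.2 and 21.0 FPKM in siUPF1, and the groups overlapped. The log2 fold change was 0.016 (95% interval -0.21 to 0.24, limma adjusted p = 0.937). ACO1 encodes IRP1, which is cytosolic aconitase while it holds an iron-sulfur cluster. ACO1 rose from 6.27 and 6.31 FPKM in siControl to 7.60 and 7.49 FPKM in siUPF1, and the groups were well separated against a spread of 0.0286 FPKM in siControl and 0.0734 FPKM in siUPF1 (SD, n = 2). The log2 fold change was 0.23 (standard error 0.089, 95% interval 0.018 to 0.44, limma adjusted p = 0.209). It passed an unadjusted p of 0.05 but did not under 6 of 14 alternatives, namely quantile normalization (0.18), median centring (0.19), the replicate number as a block (0.23), all 8 libraries in a single fit (0.23) and the fits without siControl replicate 1 (0.22) or siControl replicate 2 (0.23).

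HMOX1 encodes heme oxygenase 1, which opens the heme ring and releases its iron. HMOX1 was at 40.7 and 43.1 FPKM in siControl and 36.0 and 36.96 FPKM in siUPF1, with no overlap. The log2 fold change was -0.19 (95% interval -0.41 to 0.020, limma adjusted p = 0.263). It passed when no minimum was set and low genes were kept (-0.19), with quantile normalization (-0.23), with median centring (-0.23), without siUPF1 replicate 2 (-0.21) and with the trend in transcript GC content and length removed (-0.30).

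Of the 8 iron genes, 1 was higher and 2 were lower after depletion at an unadjusted p of 0.05 from limma, beside 16% and 5.51% of the 13535 genes tested. An adjusted p of 0.05 was passed by 0 members and by 0.0369% of genes, and an adjusted p of 0.1 by TFRC and SLC40A1 and by 3.75% of genes. Both siUPF1 libraries lay below both controls for 6 members, beside 18.5% of genes, and above them for 1, beside 37.5%. The median log2 fold change was -0.20 over the members and 0.057 over all genes tested. The number of members past the unadjusted threshold rested on single libraries. It was 1 without siControl replicate 2, 6 without siUPF1 replicate 1 and 5 without siUPF1 replicate 2, beside 12.6%, 43.7% and 21.7% of all genes in the same fits. With median centring 0 members were higher and 6 lower, beside 11.8% and 9.39% of genes.

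**Figure D2:**
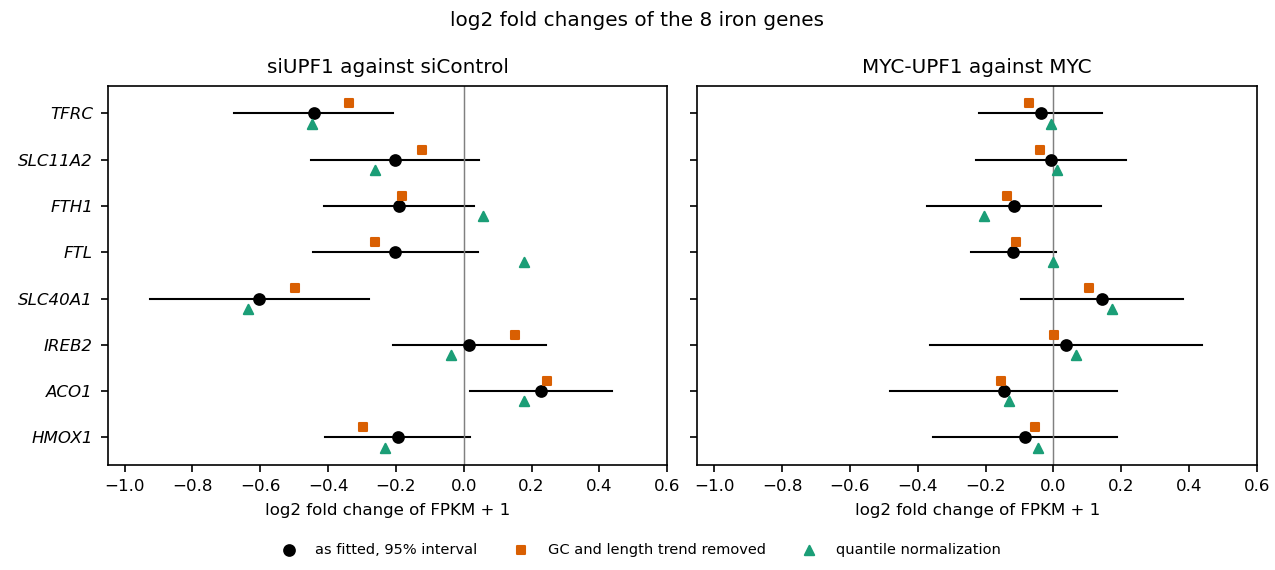
Log2 fold change of FPKM + 1 (horizontal axis) of the 8 iron genes for depletion and for overexpression, with 95% limma intervals as bars. For depletion the intervals of TFRC, SLC40A1 and ACO1 exclude 0, and for overexpression all 8 include it; the depletion values of FTH1 and FTL turn positive with quantile normalization.

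Over all genes, transcripts richer in GC had higher fold changes after depletion (Spearman correlation 0.561 over 12697 genes, which do not count as replicates). In 10 bins of genes by GC content the median log2 fold change went from -0.11 in the lowest bin to 0.26 in the highest. TFRC and SLC40A1, at 40.9% and 41.4% GC, fell in bin 3, where the median was -0.03. FTL and HMOX1, at 56% and 57.7% GC, fell in bin 8, where the median was 0.14, and both had negative values. A fit was made with the trend of each library in GC content and length taken out. In it 4 members passed an unadjusted p of 0.05, beside 25.1% of all genes. They were TFRC at -0.34, SLC40A1 at -0.50, HMOX1 at -0.30 and ACO1 at 0.25. The log2 fold changes of the other 4 were -0.26 for FTL, -0.18 for FTH1, -0.12 for SLC11A2 and 0.15 for IREB2, none of which passed. After overexpression the trend ran the other way (Spearman correlation -0.45 over 12475 genes), and the median of bin 8, with FTL and HMOX1, was -0.06. The part of the GC trend in the members' values was not tested beyond this fit.

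**Figure D3:**
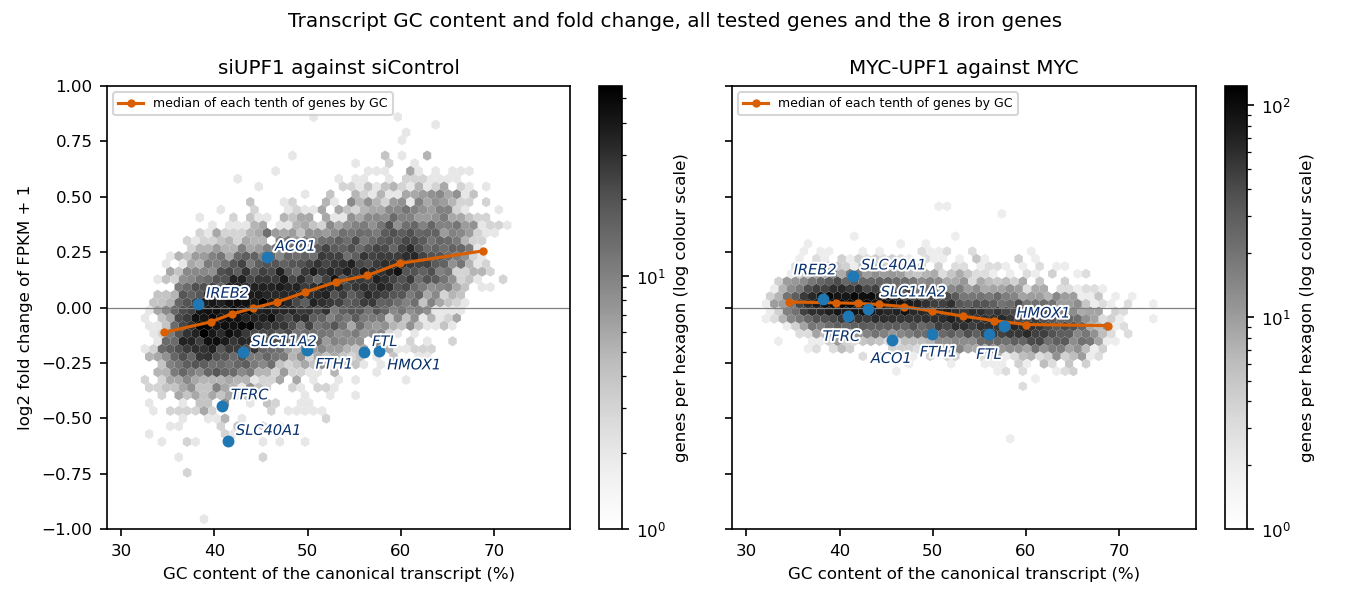
Log2 fold change of FPKM + 1 (vertical axis) against transcript GC content in percent (horizontal axis) for all tested genes with a GC value as shaded hexagons (darker with more genes, log scale), the medians of 10 GC bins as a line and the 8 iron genes as named points. After depletion TFRC, SLC40A1, FTL, HMOX1, FTH1 and SLC11A2 lie below the line and ACO1 and IREB2 above it. Quantile normalization, with which the depletion values of FTH1 and FTL turn positive, is not drawn here.

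The annotation of the members was set beside these values because UPF1 acts in NMD. GENCODE marks at least 1 transcript as an NMD target for TFRC (5 of 38 annotated transcripts), SLC11A2 (7 of 33), IREB2 (3 of 10), FTH1 (2 of 12) and HMOX1 (1 of 7). For SLC40A1, ACO1 and FTL it marks 0 of 7, 0 of 3 and 0 of 1. Of 13262 protein-coding genes, 46.1% have such a transcript. The 3′ untranslated region of the canonical transcript was 2658 bases long in TFRC, 1288 in SLC40A1, 4658 in ACO1, 3310 in IREB2, 2333 in SLC11A2, 609 in HMOX1, 442 in FTH1 and 144 in FTL, beside a median of 1282.5. FPKM is given per gene, so the share of each transcript cannot be read from these values.

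After UPF1 overexpression, 0 of the 8 iron genes passed an unadjusted p of 0.05 from limma, beside 1.43% of the 13251 genes tested, and 0 passed an adjusted p of 0.05 or of 0.1, beside 0.00755% and 0.0226%. TFRC was at 121 and 111 FPKM in MYC and 109 and 116 FPKM in MYC-UPF1, which overlap, with a log2 fold change of -0.04 (95% interval -0.22 to 0.14, limma adjusted p = 1). SLC40A1 was at 23.3 and 21.5 FPKM in MYC and 23.02 and 26.8 FPKM in MYC-UPF1, which overlap, with a log2 fold change of 0.14 (95% interval -0.095 to 0.38, limma adjusted p = 1). The interval of neither gene included the value found for it after depletion. ACO1 was at 7.56 and 10.1 FPKM in MYC and 8.51 and 7.14 FPKM in MYC-UPF1, with a log2 fold change of -0.15 (95% interval -0.48 to 0.19, limma adjusted p = 1). The MYC libraries alone spanned more than the difference between the group means of ACO1.

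FTL was the member whose plasmid groups did not overlap. It was at 4544 and 4483 FPKM in MYC and 4225 and 4087 FPKM in MYC-UPF1, a log2 fold change of -0.12 (95% interval -0.24 to 0.0064, limma adjusted p = 1). Both MYC-UPF1 libraries lay below both controls for this 1 member, beside 11.8% of genes, and above both for 0 members, beside 8.88%. FTL passed with a pseudocount of 0.1 (-0.12), without the GC and length trend (-0.11) and without MYC-UPF1 replicate 1 (-0.14). FTL held rank 11 in all 4 plasmid libraries, so quantile normalization left no difference.

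FTH1 was at 1630 and 1900.5 FPKM in MYC and 1843 and 1428 FPKM in MYC-UPF1, and both groups were spread widely (log2 fold change -0.12, 95% interval -0.37 to 0.14, limma adjusted p = 1). It passed with quantile normalization (-0.21) and without MYC-UPF1 replicate 1 (-0.30). The ratio of FTH1 to FTL was 0.359 and 0.424 in MYC and 0.436 and 0.349 in MYC-UPF1 (exact permutation p = 1, two-sided), and that of TFRC to FTH1 was 0.0742 and 0.0582 in MYC and 0.0593 and 0.0813 in MYC-UPF1 (exact permutation p = 0.667, two-sided). The groups overlapped in both ratios.

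IREB2 was spread widely within both plasmid groups, at 20.3 and 15.4 FPKM in MYC and 14.9 and 22.1 FPKM in MYC-UPF1, with a log2 fold change of 0.04 (95% interval -0.37 to 0.44, limma adjusted p = 1). HMOX1 was at 22.96 and 29.2 FPKM in MYC and 25.4 and 23.5 FPKM in MYC-UPF1, with a log2 fold change of -0.08 (95% interval -0.35 to 0.19, limma adjusted p = 1). Without MYC replicate 1 it passed (-0.25). SLC11A2 held the narrowest range, at 15.2 and 15.3 FPKM in MYC and 15.3 and 15.1 FPKM in MYC-UPF1, with a log2 fold change of -0.0066 (95% interval -0.23 to 0.21, limma adjusted p = 1). MYC replicate 1 and MYC-UPF1 replicate 2 were the higher libraries for TFRC, SLC40A1 and IREB2 and the lower ones for FTH1, SLC11A2, ACO1 and HMOX1.

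The 2 comparisons were then tested against each other in a single fit over the 8 libraries. The depletion value minus the overexpression value was -0.40 on the log2 scale for TFRC (standard error 0.126, 95% interval -0.69 to -0.12, limma adjusted p = 0.212) and -0.75 for SLC40A1 (standard error 0.183, 95% interval -1.15 to -0.34, limma adjusted p = 0.167). These 2 of 8 members passed the unadjusted threshold, both with a negative value, beside 3.4% of 13412 genes with a negative value and 15.2% in either direction. An adjusted p of 0.05 was passed by 0 of 8, beside 0.0224% of genes. TFRC did not pass without siControl replicate 2 (-0.34). For ACO1 the difference was 0.37 (limma adjusted p = 0.374), and it passed without the GC and length trend (0.40), without MYC replicate 1 (0.56) and without MYC-UPF1 replicate 1 (0.49). The other 5 members did not pass.

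Across the 4 groups, the order of the levels set some groups apart, as a description with no test, since the siRNA and the plasmid cells differ in more than UPF1. TFRC was lowest in siUPF1, below both libraries of every other group, and the siControl, MYC-UPF1 and MYC libraries overlapped. SLC40A1 was highest in siControl, at a mean of 44.3 FPKM, and siUPF1, MYC-UPF1 and MYC followed with means of 29.1, 24.9 and 22.4 FPKM, where neighbours in this order overlapped. HMOX1 was likewise highest in siControl (41.9 FPKM), then siUPF1 (36.5 FPKM), with the plasmid groups lower and overlapping (26.1 FPKM in MYC and 24.4 FPKM in MYC-UPF1). FTH1 had the same order, from 2286 FPKM in siControl through 2002 FPKM in siUPF1 to 1765 FPKM in MYC and 1635 FPKM in MYC-UPF1, where the plasmid groups overlapped. For FTL, MYC-UPF1 and siUPF1 overlapped, and MYC and then siControl lay above them. SLC11A2 was lowest in siUPF1, then siControl, with the plasmid groups above and overlapping. ACO1 was lowest in siControl, and its other groups overlapped, as did all neighbouring groups of IREB2.

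The genes whose log2(FPKM + 1) followed TFRC most closely over the 8 libraries, of 7752 genes whose mean FPKM reached 5, were MTTP (Pearson correlation 0.990), CERS6 (0.986), LIPA (0.979), RPSA (0.978) and HSD17B12 (0.976). MTTP, which encodes the microsomal transfer protein that loads lipid onto lipoproteins, was at 58.5 and 64.2 FPKM in siControl, 38.1 and 33.7 FPKM in siUPF1, 63.6 and 57.2 FPKM in MYC and 57.6 and 61.5 FPKM in MYC-UPF1. Like TFRC, it was lowest in the siUPF1 libraries. The 8 points share groups, and the siUPF1 points of TFRC lie below all others, so these correlations describe the libraries. Among the members, SLC11A2 followed TFRC most closely (0.915), while FTH1 and HMOX1 followed each other (0.916).

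The members were set beside 74 other genes of iron and heme handling, of which 71 were listed and 69 tested. After depletion 7 of the 69 were higher and 7 lower at an unadjusted p of 0.05 from limma, and 55 did not pass, beside 16% and 5.51% of all genes. Their median log2 fold change was -0.02, beside 0.057 over all genes tested. The count of 14 was 5 without siControl replicate 1, 6 without siControl replicate 2 and 32 without siUPF1 replicate 1, where 10.7%, 12.6% and 43.7% of all genes passed. The factors described to cleave or bind TFRC mRNA for decay are RC3H1, RC3H2, ZC3H12A and ZFP36. Of these 4, 0 passed the threshold in either comparison, beside 21.5% of all genes after depletion and 1.43% after overexpression. Their log2 fold changes went from -0.17 to -0.02 after depletion, with overlapping groups.

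HP, which encodes haptoglobin, the scavenger of free haemoglobin, had the largest difference of these genes. HP fell from 19.0 and 20.3 FPKM in siControl to 11.7 and 10.5 FPKM in siUPF1, which is -0.77 on the log2 scale (limma adjusted p = 0.0584), with no overlap and a range of -0.85 to -0.70 with a library left out. Of the other heme genes, SLC46A1, a folate transporter also described to carry heme, rose from 9.49 and 10.4 to 14.1 and 15.4 FPKM (log2 fold change 0.52, limma adjusted p = 0.0804). LRP1, the receptor for heme bound to haemopexin, rose from 28.9 and 28.8 to 35.4 and 43.6 FPKM (log2 fold change 0.43, limma adjusted p = 0.128), and was at 0.20 without the GC and length trend and at 0.29 without siUPF1 replicate 2. BLVRB, a biliverdin reductase that acts after heme oxygenase, rose from 47.9 and 48.1 to 59.4 and 63.6 FPKM (log2 fold change 0.35, limma adjusted p = 0.118), and was at 0.23 without the GC and length trend. BLVRB did not pass without siControl replicate 1 (0.35) or without siControl replicate 2 (0.35).

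HAMP and TMPRSS6 belong to the control of ferroportin. HAMP, which encodes hepcidin, the hormone that sends ferroportin to degradation, was low throughout, at 2.61 and 1.43 FPKM in siControl and 1.25 and 0.878 FPKM in siUPF1 (log2 fold change -0.53, limma adjusted p = 0.191). It did not pass when low genes were kept (-0.53) or without siControl replicate 1 (-0.24), and was at -0.83 with a pseudocount of 0.1 and at -0.81 without siControl replicate 2. TMPRSS6, a protease that restrains hepcidin, was at 1.22 and 1.78 FPKM in siControl and 2.01 and 2.51 FPKM in siUPF1 (log2 fold change 0.39, limma adjusted p = 0.189). It did not pass when low genes were kept (0.39), under quantile normalization (0.30), without the GC and length trend (0.19) or without siControl replicate 1 (0.23).

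Among regulators, MYC, which is described to activate TFRC transcription, fell from 16.7 and 17.7 to 13.9 and 11.7 FPKM (log2 fold change -0.40, limma adjusted p = 0.129), and did not pass without siControl replicate 2 (-0.36). HIF1A, another described activator of TFRC, was at 45.7 and 48.4 FPKM in siControl and 42.7 and 33.7 FPKM in siUPF1 (log2 fold change -0.30, limma adjusted p = 0.230). Whether MYC or HIF1A bears on the TFRC value was not tested. Other regulators listed, NFE2L2 (-0.28), KEAP1 (0.056) and BACH1 (0.010), did not pass the unadjusted threshold after depletion. NDFIP2, an adaptor of ubiquitin ligases that act on DMT1, was at 7.27 and 7.95 FPKM in siControl and 6.75 and 4.94 FPKM in siUPF1 (log2 fold change -0.34, limma adjusted p = 0.221). TTC7A was at 2.75 and 2.67 FPKM in siControl and 3.37 and 3.68 FPKM in siUPF1 (log2 fold change 0.29, limma adjusted p = 0.168). Without the GC and length trend HIF1A (-0.17), NDFIP2 (-0.14) and TTC7A (0.13) did not pass. Nor did HIF1A and NDFIP2 when low genes were kept (-0.30 and -0.34), without siControl replicate 2 (-0.26 and -0.29) or without siUPF1 replicate 2 (-0.14 and -0.15). Without siUPF1 replicate 1 they were at -0.47 and -0.54. HIF1A also failed without siControl replicate 1 (-0.34), with the replicate number as a block (-0.30) and in eBayes without the trend (-0.30). TTC7A did not pass under quantile normalization (0.22), without siControl replicate 1 (0.30) or without siControl replicate 2 (0.27).

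After overexpression 1 of the 69 other iron genes was lower and 0 were higher, beside 0.807% and 0.619% of all genes, while 16 had both MYC-UPF1 libraries below both controls and 5 above, beside 11.8% and 8.88%. The gene was HAMP, at 0.916 and 1.46 FPKM in MYC and 0.574 and 0.859 FPKM in MYC-UPF1 (log2 fold change -0.34, limma adjusted p = 1). It did not pass without MYC replicate 2 (-0.16), without MYC-UPF1 replicate 1 (-0.22), without the FPKM minimum (-0.34) or with all 8 libraries in a single fit (-0.34). With a pseudocount of 0.1 HAMP was at -0.65, and without MYC replicate 1 at -0.52. The count was 6 without MYC replicate 1, 0 without MYC replicate 2 and 3 without MYC-UPF1 replicate 1, where 5.85%, 1.63% and 3.56% of all genes passed.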

How the data were processed

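RNA-seq of Huh7 cells was made with a stranded mRNA kit. Per the paper's methods and the submitters' processing notes, the authors trimmed reads (Trimmomatic 0.38, FastQC 0.11.7), aligned them to hg19 with HISAT2 2.1.0, assembled transcripts with StringTie 1.3.4d and deposited an FPKM value for each gene in each library. Series and single-library tables held the same values. Whole reads could not be recovered (among genes under 0.1 FPKM, at most 1.34% shared a common ratio between libraries), so no count test was run and counting error is unknown.

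FPKM was tested as log2(FPKM + 1), a scale that understates changes of low genes, with limma 3.58.1 (R 4.3.3, lmFit and eBayes with trend) for genes whose mean FPKM reached 0.5, with Benjamini-Hochberg adjustment over all genes tested. Ratios were tested by exact permutation. The members, lists and tests were chosen with earlier results of these data known. Named were the 8 members, UPF1, at most 10 other iron genes per comparison (unadjusted p of 0.05, both treated libraries beyond both controls, by size of change) and the 5 genes most like TFRC. Transcript GC content was known for 15524 genes. Alternatives were a pseudocount of 0.1, no FPKM minimum or one of 5, quantile normalization, median centring, 1 fit over 8 libraries, eBayes without trend, the replicate number as a block, removal of the GC and length trend (loess, span 0.5) and each library left out. Python 3.11.15 with pandas 2.3.3, scipy 1.17.1 and matplotlib 3.10.9 were used for reading the tables and for plots.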

Additional observations from a re-analysis of the deposited data

Results flagged for a closer look

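For TFRC and SLC40A1 the test of depletion against overexpression passed an unadjusted p of 0.05 but not an adjusted p of 0.05. The same unadjusted threshold was passed by 15.2% of the 13412 genes tested, in either direction. The test asks only whether lowering and raising UPF1 gave equal changes, and the siRNA and plasmid cells differ in more than UPF1. The depletion minus overexpression log2 value was -0.40 for TFRC and -0.75 for SLC40A1 (unadjusted p under 0.05 in limma, adjusted p = 0.212 and 0.167). Both siUPF1 libraries were below both controls for each gene, as for 18.5% of all genes after depletion, while the plasmid groups overlapped. FTH1, SLC11A2 and HMOX1 had the same pattern.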

How the results depend on the processing

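The 24 values of the 8 members were refitted under 360 alternatives, of which 24 turned the direction and 336 did not. Many of the 336 could not turn it. The FPKM minimum, the replicate block (also with the numbers crossed), eBayes without trend and the single fit over 8 libraries leave the log2 fold changes of the members unchanged. The 336 also hold FTL after overexpression with quantile normalization, where the value was 0. With quantile normalization the depletion values were 0.056 for FTH1, 0.18 for FTL and -0.037 for IREB2, the overexpression value of SLC11A2 was 0.0096, and the differences were 0.17 for FTH1 and 0.20 for FTL. With median centring IREB2 was at -0.023 after depletion and SLC11A2 at 0.0013 after overexpression. With the GC and length trend removed the difference of IREB2 was 0.15. Leaving out 1 library in turn gave -0.055 to 0.087 for IREB2 after depletion. After overexpression it gave -0.10 to 0.026 for TFRC, -0.30 to 0.066 for FTH1, -0.019 to 0.0053 for SLC11A2, -0.23 to 0.31 for IREB2, -0.33 to 0.040 for ACO1 and -0.25 to 0.084 for HMOX1. For the difference it gave -0.26 to 0.11 for FTH1, -0.29 to 0.25 for IREB2 and -0.28 to 0.055 for HMOX1. The log2 ratio of FTH1 to FTL after depletion went from -0.044 to 0.065 and after overexpression from -0.16 to 0.16. That of TFRC to FTH1 went from -0.30 to -0.21 and from -0.15 to 0.31.

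Of the members, 3 passed after depletion, 6 with median centring and 1 to 6 with a library left out. After overexpression 0 passed, against 1 with a pseudocount of 0.1, with quantile normalization or without the GC and length trend, and 0 to 2 with a library left out. The difference was passed by 2, and by 1 to 3 with a library left out. Of the other iron genes, 5 to 32 passed after depletion with a library left out. After overexpression it was 0 without the FPKM minimum, at a mean FPKM of at least 5 or with all 8 libraries in 1 fit, 3 without the GC and length trend, and 0 to 6 with a library left out. Over the alternatives the log2 fold change after depletion ranged from -0.51 to -0.34 for TFRC and from -0.79 to -0.41 for SLC40A1. The limma adjusted p in the main fit was 0.0937 and 0.0946. Neither gene passed an adjusted p of 0.05 under quantile normalization, under median centring, with the replicate block or without the FPKM minimum, where 0 genes did.

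Same-numbered plasmid libraries deviated in opposite directions (correlation of deviations -0.57 for overexpression across genes). For depletion this correlation was weak (-0.13), and the labels state no pairing. With the replicate number as a block, 2 members passed after depletion and 0 after overexpression, beside 19.1% and 1.28% of all genes. In that block fit 2 other iron genes passed after overexpression. With the numbers crossed, chosen after seeing the data, 3 members passed after each comparison and 9 other iron genes after overexpression, beside 22.9% of all genes after depletion and 9.26% after overexpression.

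Over all genes, the depletion split of 2162 higher to 746 lower became 1417 to 1408 under quantile normalization and 1602 to 1271 under median centring. An adjusted p of 0.05 was passed by 5 genes after depletion, against 316 at a mean FPKM of at least 5, 90 with the numbers crossed, 368 with all 8 libraries, 121 to 4546 with a library left out (the highest without siUPF1 replicate 1) and 937 with the GC and length trend removed. It was 0 under quantile normalization, under median centring, with the block and without the FPKM minimum. The overexpression count of 189 was 409 without the FPKM minimum, 49 at a mean of at least 5, 368 with the trend removed, 1227 with the numbers crossed and 216 to 777 with a library left out (the highest without MYC replicate 1). The cause of these shifts was not tested. Without read numbers the depth sets no stated limit.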
